A study of Rattus norvegicus with 6 samples.

Results

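Idh1 encodes the isocitrate dehydrogenase of the cytosol and peroxisome, which turns isocitrate into 2-oxoglutarate and in doing so reduces NADP to NADPH. NADPH is spent on the synthesis of fatty acids and sterols and on keeping glutathione and thioredoxin reduced, and the kidney is among the tissues in which the enzyme is known to be well expressed. Long non-coding RNAs (lncRNAs) are transcripts without a long open reading frame. Many lie close to protein-coding genes, some are known to act on a neighbour, and for most no role is known.

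The measurements described here are those of the Idh1 probe and of the probes for 2 lncRNAs on the same chromosome, TCONS_00134056 and TCONS_00134054, which are 3 of the 40351 distinct probes of the array. The 3 were chosen by their values on these same arrays: the study's supplementary lists hold transcripts selected on a fold of at least 2 and a p of at most 0.05 between low birth weight and control kidneys, and Idh1 was taken from there with the listed lncRNAs nearest to it. Their difference between the groups is therefore given as a description, without a test.

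Kidneys were taken at postnatal day 10 from male Sprague Dawley rats. The 3 rats of low birth weight (LBW) had mothers kept on a low-protein diet in pregnancy and until the kidneys were taken, and the 3 control rats, of normal birth weight, had mothers on a normal protein diet. Since the diet also spanned the suckling period, birth weight and the diet after birth cannot be told apart. Total RNA of each kidney was hybridized to 1 one-colour Agilent array, so that every level comes from 1 rat, and precision is limited by how few the arrays are. Levels are intensities that were quantile normalized between arrays and put on the log2 scale. The scanner software flagged 79.9% to 83.6% of spots on each array as well above background. All arrays lay on 1 slide, where row 1 held the 3 control arrays and LBW 1, and row 2 held LBW 2 and LBW 3, so row and group partly coincided. The tissue could not be checked against kidney markers, because none of the markers listed for kidney cells has a named probe.

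The Idh1 probe had a level of 10.99 in control 1, 10.39 in control 2 and 10.11 in control 3. Its level was 9.46 in LBW 1, 8.73 in LBW 2 and 8.84 in LBW 3. All 3 LBW arrays lay below all 3 control arrays, with control 1 the highest of the 6 and LBW 2 the lowest, and the lowest control was 0.65 above the highest LBW array. The mean was 10.50 ± 0.45 (SD, n = 3) in controls and 9.01 ± 0.39 (SD, n = 3) in LBW rats, a difference of -1.49 on the log2 scale, or 2.81-fold lower in LBW rats. This was more than 3 times the SD within either group. Selection on fold and p in this same contrast favours such a ratio, and nothing is read from it.

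The groups were also apart in the intensities before normalization, although there LBW 3 was the lowest array. These intensities were 2239, 1295 and 1109 in controls 1, 2 and 3 and 752, 446 and 367 in LBW 1, 2 and 3, each with an error of 10% as estimated by the scanner software. Idh1 has 1 spot on each array, it was well above background on all 6 arrays, and no other probe for the gene could be named. In LBW 1, the only LBW array in row 1 of the slide, Idh1 was closest to the controls, and with the row as a block in the fit the difference was -1.04. In whole kidney RNA, fewer cells that express a transcript and less of it per cell cannot be told apart.

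TCONS_00134056 has 3 spots on each array. Its level was 7.36, 7.48 and 6.41 in controls 1, 2 and 3 and 5.56, 3.78 and 4.25 in LBW 1, 2 and 3. The groups did not overlap here either, control 3 was the lowest control, and LBW 1 again stood above the other LBW arrays. The mean fell from 7.08 ± 0.59 (SD, n = 3) in controls to 4.53 ± 0.92 (SD, n = 3) in LBW rats, a difference of -2.55, or 5.87-fold lower. Every spot was well above background on all 6 arrays, and 1 outlier spot of LBW 1 was left out. With normexp background correction and an offset of 50, which is near or above the intensity of its LBW spots, the difference was -1.21. Alternatives chosen after seeing the data took these apart: without the offset normexp gave -2.23, and the offset added to the processed intensities gave -1.31. With the slide row as a block it was -1.53.

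TCONS_00134054 was the dimmer of the lncRNAs relative to background. It had a level of 3.97, 4.58 and 3.14 in controls 1, 2 and 3 and of 2.26, 1.82 and 1.92 in LBW 1, 2 and 3. As measured, the LBW arrays were all below the lowest control, control 3, and the nearest, LBW 1, was 0.88 below it. All 3 spots were well above background on each control array, against 1 of 3 spots in LBW 1 and 0 of 3 in LBW 2 and in LBW 3, so the transcript did not count as well above background on any LBW array. Its LBW spots did differ from background by the scanner software's own test of each spot, with spot p-values of at most 0.000679 in LBW 1, 0.0288 in LBW 2 and 0.000133 in LBW 3. It entered the tested probes through the control group alone and so had to be lower in LBW rats. The measured means were 3.89 ± 0.72 (SD, n = 3) and 2.00 ± 0.23 (SD, n = 3), a difference of -1.90. Each LBW array was also set to at least the lowest level that any probe well above background had on it. On the processed intensities the level was then 3.07-fold lower in LBW rats. This is not a lower limit, because a probe can lie above such a level and still not be well above background. In LBW 2 that lowest level was 2.35, while the Prss35 probe, not well above background there, was at 2.93. The difference was -0.24 with normexp correction and its offset and -1.04 with normexp without the offset, so its size was not settled.

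The spots of TCONS_00134054 show how near to background it was. Before normalization, its spots read 14.1 to 24.5 in control 1, 20.8 or more in control 2 and 8.27 to 9.70 in control 3. In LBW 1 they spread from 2.17 to 9.42, in LBW 2 from 1.91 to 5.06 and in LBW 3 from 2.57 to 4.15. The brightest spot of LBW 1 thus fell among those of control 3, while all spots of LBW 2 and LBW 3 were dimmer than every control spot.

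**Figure D1:**
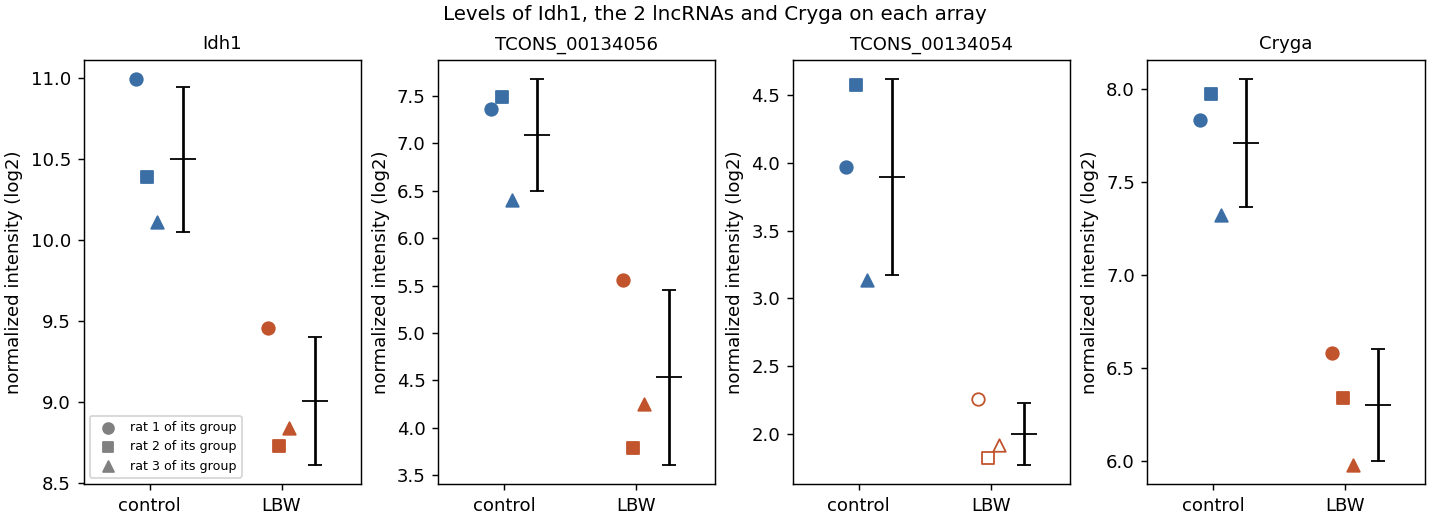
Normalized intensity (log2) of Idh1, TCONS_00134056, TCONS_00134054 and Cryga on the 3 control and 3 LBW arrays, each panel with its own axis; the bars give the mean and SD of a group, and open symbols mark arrays on which the transcript was not well above background. In each panel the 3 LBW arrays lie below the 3 control arrays, and for TCONS_00134054 all 3 LBW symbols are open.

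Over the 33608 tested probes of the array, the groups did not overlap and LBW was lower for 12.1%, and for 0.431% this held together with a fold of at least 2. All 3 transcripts met both conditions, and as they were selected on fold and p in this same contrast, nothing is read from these counts. In the limma fit across all tested probes, 0.143% of them, 48 in all, had an adjusted p under 0.05. By limma 0 of the 3 transcripts were among these, and 3 of 3 had an unadjusted p under 0.05, as did 15% of the tested probes. The study's selection on p had all but fixed this last count, and nothing is read from it. The counts of the 3 transcripts were the same where each probe was tested with its own variance alone. The 3 transcripts also varied more within the groups than most probes did. Their pooled SD within groups was 0.42 for Idh1, 0.77 for TCONS_00134056 and 0.54 for TCONS_00134054, against a median of 0.16 over the tested probes. The LBW levels behind the SD of TCONS_00134054 were not well above background. An SD above this median was not particular to the 3. Cryga, Lyz2, Alb, Prss35, Igsf11, Igll1 and Il6r, also from the study's list, had one too, while Pxdn was below it at 0.13.

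Because the 3 transcripts are read on the same arrays, the change of each lncRNA can be set against that of Idh1 rat by rat. Taking the log2 ratio of TCONS_00134056 to Idh1 on each array relative to its mean in controls, the values were -0.21, 0.51 and -0.29 in controls 1, 2 and 3 and -0.49, -1.53 and -1.17 in LBW 1, 2 and 3. On these intensities the lncRNA was thus lower relative to Idh1 in each LBW rat than in any control, by -1.06 ± 0.53 (SD, n = 3) on average. Both transcripts were selected in this same contrast, and how many probes have a ratio to Idh1 that parts the groups was not counted. The ratios are therefore a description, and nothing is read from their separation. With normexp correction and the offset of 50 the same ratio was 0.14, 0.24 and 0.21 in LBW 1, 2 and 3, inside the range of the controls. The offset by its construction shrinks the change of a dim probe more than that of Idh1, and normexp without it gave -0.34, -1.01 and -0.87, again below every control. For TCONS_00134054 the ratio was -0.60, -0.30 and -0.32 in LBW rats and -0.42, 0.79 and -0.37 in controls, and the groups overlapped. Normexp without the offset gave 0.19, 0.63 and 0.53 in LBW rats and -0.46, 0.62 and -0.16 in controls, of opposite sign and also overlapping in range. With the offset the ratio was 0.81, 1.39 and 1.28 in LBW rats, above every control (-0.49, 0.25 and 0.23). This probe is then nearly flat over the arrays, so that the ratio mostly restates the change of Idh1. All these LBW ratios of TCONS_00134054 rest on levels that were not well above background.

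Shared variation was looked at after the mean of each group was removed, since a correlation over the pooled arrays would only restate that all 3 transcripts were lower in LBW rats. Over the 6 arrays, the centred level of TCONS_00134056 followed that of Idh1 with a Pearson r of 0.82 and a Spearman rho of 0.77. Of the 33536 other tested probes with values on all arrays, 5.42% had an r with Idh1 at least as high, and over all of them r had a median of 0.11 and a 95th percentile of 0.83. With 6 arrays and the group means removed, an r of this size was thus held by 1818 probes. With 1 array left out and the group means taken anew, r was between 0.66, without LBW 1, and 0.98, without control 1. Without the 2 arrays farthest from the median of the centred Idh1 level, control 1 and LBW 1, r was 0.86 over 4 arrays, with the deviations still from the means of all 3 arrays of a group.

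For TCONS_00134054 the r with Idh1 was 0.48 and rho 0.77, the same rho as for TCONS_00134056, and 28.5% of the tested probes had an r as high. Single controls moved this r, which was -0.0125 without control 3 and 0.97 without control 2, and without control 1 and LBW 1, taken as above, it was 0.93 over 4 arrays. The arrays therefore do not order the lncRNAs by how closely they followed Idh1, and the LBW levels of TCONS_00134054 that enter its r were not well above background. The lncRNAs had an r of 0.74 with each other. These are descriptions over 6 arrays that were handled on 1 slide, and no p is given for them.

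The shared part can be named array by array. Control 3 was the lowest control and LBW 1 the highest LBW array for Idh1, for TCONS_00134056 and for Cryga, the crystallin gene next to Idh1. The values of TCONS_00134054 had the same order, but those of its LBW arrays were not well above background, so their order is not counted. This order was noticed after the values were seen, and it held for 9.99% of the 33537 tested probes with values on all arrays. In control 2 the transcripts parted: Idh1 was 0.11 below the mean of its group there, while TCONS_00134056 was 0.40 and TCONS_00134054 0.68 above theirs.

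**Figure D2:**
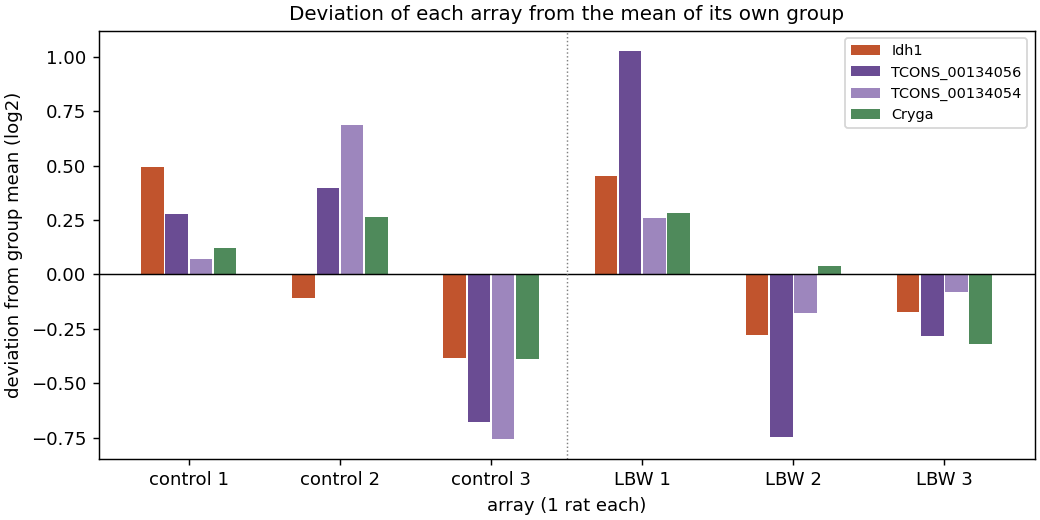
Deviation of each array from the mean of its own group (log2) for Idh1, TCONS_00134056, TCONS_00134054 and Cryga; each group of bars is 1 rat, and bars start at 0. All 4 are below their group mean in control 3 and above it in LBW 1, and in control 2 Idh1 is the only one below it; TCONS_00134054 was not well above background on the LBW arrays.

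The study's lists place TCONS_00134056 on chromosome 9 from 63737838 to 63744419 and TCONS_00134054 from 63737838 to 63741428. They share their start, and the second lies within the span of the first. The Idh1 probe is listed from 63769635 to 63769694 on the minus strand, 25.2 kb from the nearer lncRNA and 28.2 kb from the other. The lists do not state a genome build, while the scanner files name rn4, so no later annotation was laid over these positions and whether the lncRNA spans hold exons of a known gene was not read. The accession listed for the probe, a RefSeq transcript, is that of Idh1.

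**Figure D3:**
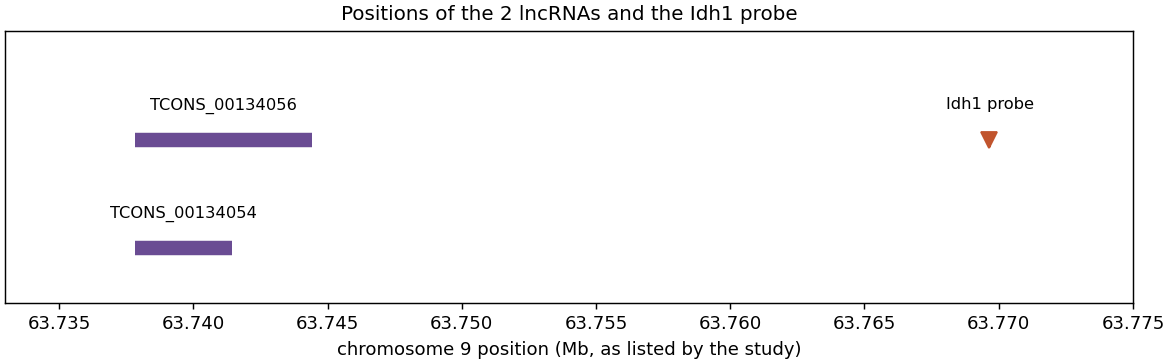
Positions (Mb) on chromosome 9, as listed by the study, of TCONS_00134056 and TCONS_00134054 (bars from start to end) and of the Idh1 probe (triangle). Both lncRNAs start at 63737838 and lie at lower positions than the Idh1 probe.

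Both lncRNAs are read by probes of 60 bases, and these are shown because the lncRNA levels come from them. Neither probe shares a run of 20 bases on either strand with any other probe of the array, and the same holds for the Idh1 and Cryga probes.
TCONS_00134056: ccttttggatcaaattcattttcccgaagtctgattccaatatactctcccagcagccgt
TCONS_00134054: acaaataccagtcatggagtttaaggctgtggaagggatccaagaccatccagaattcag

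Since the spans overlap, the probes may read partly the same transcripts, and they are not independent measurements of the region.

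In the RefSeq annotation of the later assembly GRCr8, the protein-coding genes around Idh1 are, in order, Plekhm3, Cryge, Crygd, Crygc, Crygb, Cryga, Idh1, Pikfyve and Pth2r. The Cryg genes encode gamma-crystallins, structural proteins of the lens, and Pikfyve encodes a lipid kinase of endosomes. Of these neighbours, Cryga alone has a probe that could be named, and it is named because it too is in the study's list, so its values are a description as well. The Cryga level was 7.83, 7.97 and 7.32 in controls 1, 2 and 3 and 6.58, 6.34 and 5.98 in LBW 1, 2 and 3. It was below every control in each LBW rat. The mean was 7.71 ± 0.34 (SD, n = 3) in controls and 6.30 ± 0.30 (SD, n = 3) in LBW rats, a difference of -1.41, or 2.65-fold lower. It was -0.96 with normexp correction and its offset and -1.34 without the offset.

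Relative to Idh1, Cryga changed by 0.08 ± 0.28 (SD, n = 3) in LBW rats, less than the SD of 0.37 in the controls, and by 0.45 with normexp correction and its offset or 0.15 without the offset. After the group means were removed, its r with Idh1 was 0.65 (rho 0.77), which 16.6% of tested probes reached, and 0.42 without control 3. Its r was 0.75 with TCONS_00134056 and 0.83 with TCONS_00134054, whose LBW levels were not well above background. Idh1 and Cryga lie on the minus strand, and Pikfyve on the plus strand. The listed positions of the Idh1 probe and the lncRNAs have no stated build, and the neighbours are placed on GRCr8. Whether the lncRNAs lie between Cryga and Idh1 was therefore not determined. The study names Crygb, which has no named probe here, as the nearest protein-coding gene of TCONS_00134056. Pikfyve, the neighbour on the other side of Idh1, has no named probe, and whether its level differed could not be read.

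As the levels of Idh1 and Cryga were both lower in LBW rats, the RefSeq promoters of these genes (GRCr8, 300 bases that span the start, printed from 5′ to 3′ on the minus strand) are given with the motifs found in them in capitals. The search covered both strands for TGACNNNGC, the core of the antioxidant response element, AGGTCA, the half-site of nuclear receptors, GGGCGG, the GC box, CCAAT and TATAAA, and no matches overlapped. The motifs were picked with the expression values known.
Idh1, chr9:74049425-74049724: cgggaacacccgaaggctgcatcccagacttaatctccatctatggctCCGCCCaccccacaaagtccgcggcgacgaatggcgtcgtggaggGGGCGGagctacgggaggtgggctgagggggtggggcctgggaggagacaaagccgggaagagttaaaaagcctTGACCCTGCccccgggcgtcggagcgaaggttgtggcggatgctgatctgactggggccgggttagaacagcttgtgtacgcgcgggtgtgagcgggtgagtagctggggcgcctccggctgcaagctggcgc
Cryga, chr9:73978333-73978632: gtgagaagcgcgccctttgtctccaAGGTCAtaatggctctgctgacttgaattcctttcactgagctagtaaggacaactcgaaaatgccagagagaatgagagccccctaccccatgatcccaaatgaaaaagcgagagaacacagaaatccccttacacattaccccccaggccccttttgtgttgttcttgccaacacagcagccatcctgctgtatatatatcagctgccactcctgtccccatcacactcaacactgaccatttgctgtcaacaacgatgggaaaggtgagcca

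The Idh1 promoter, with a GC content of 65.7%, held 2 GC boxes and 1 antioxidant response element core, and the Cryga promoter, with 49.3%, held 1 nuclear receptor half-site. Of the 33469 promoters in the RefSeq table, 33.1% held a GC box, 12.1% the antioxidant response element core and 16.2% the half-site. No motif was found in both windows. CCAAT, present in 37.5% of promoters, and TATAAA, present in 14.2%, were in neither. A match is a run of letters and not a site shown to be bound. No promoter of the lncRNAs was available.

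Genes that make or use NADPH, isocitrate or 2-oxoglutarate, peroxisomal genes and the neighbours of Idh1 were listed in 8 lists of 142 distinct genes besides Idh1. The files name probes only through the study's own lists of changed transcripts, so nearly all of these genes have no probe that could be named, and Cryga is the one described here. No count of how many listed genes were higher or lower could be made, and nothing can be said of the direction of any list.

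Among the other tested probes with a gene symbol, all of them from the study's list, the 5 whose centred levels were most like those of Idh1 over the 6 arrays were Prss35 (r 0.94), Pxdn (0.91), Igsf11 (0.84), Igll1 (0.83) and Il6r (0.81). Prss35 encodes a protein of the serine protease family, Pxdn encodes peroxidasin, which cross-links collagen IV, Igsf11 an adhesion protein, Igll1 a part of the receptor of early B cells, and Il6r the receptor of interleukin 6. Likeness in the deviations was not likeness in the change between groups. Pxdn was higher in LBW rats by 1.23, whereas Prss35, Igsf11, Igll1 and Il6r were lower, with differences of -1.17, -1.14, -1.78 and -1.02. With normexp correction and its offset these were 0.86 for Pxdn, -0.25 for Prss35, -1.13 for Igsf11, -1.40 for Igll1 and -0.28 for Il6r; without the offset Prss35 was at -0.83 and Il6r at -0.79, and with the slide row as a block Prss35 was at -0.71. Prss35 was not well above background in LBW 2, where its level was lowest, which limits both its r and its difference. Without control 1 and LBW 1, again with the deviations from all 3 arrays, r was 0.62 for Prss35 and 0.21 for Igsf11. It was below 0 for Pxdn, Igll1 and Il6r. The likeness of these last 3 thus rested on control 1 and LBW 1, as did most of that of Igsf11.

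On the rest of chromosome 9 the lists hold 4 more entries with a listed position, which Cryga lacks, each at least 18.6 Mb from the Idh1 probe. Mrpl30, for a protein of the mitochondrial ribosome, was lower in LBW rats with a difference of -1.34, and RGD1311447 and 2 probes without a symbol were higher, by 1.30, 1.51 and 2.26. Of the 42 listed lncRNAs, 5 had a listed mRNA probe within 100 kb, counting only probes with a listed position and so without Cryga. These made 7 pairs, of which 6, including both pairs with Idh1, had the same direction in the lncRNA and the mRNA, and some of the pairs share a lncRNA or a gene. Since every entry was selected on the same contrast, no test was made of this count. The study lists more lower than higher transcripts among both lncRNAs and mRNAs, which favours a shared direction. Nothing is read from the count.

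Nearly all of the 94 marker genes listed for kidney cell types and for cells of other tissues likewise lack a named probe, and the values given are of markers from outside the kidney epithelium. Lyz2, a marker of macrophages, was between 6.50 and 7.29 in controls and between 5.45 and 5.93 in LBW rats, a difference of -1.25, or -0.72 with normexp correction and its offset and -1.12 without the offset. Alb, a marker of liver, did not reach well above background in controls and was between 3.50 and 4.12 in LBW rats. Each control array was set to at least the lowest level that any probe well above background had on it. On the processed intensities Alb was then 2.94-fold higher in LBW rats, which is not a lower limit. Alb was tested through the LBW group alone and so had to be higher there. The difference was 0.19 on the log2 scale with normexp correction and its offset and 0.89 without the offset. These levels, too, differed between the groups without overlap. After the group means were removed, r with Idh1 was -0.90 for Lyz2 (rho -0.49) and -0.26 for Alb (rho -0.14). Without control 1 and LBW 1, with the deviations from all 3 arrays, it was 0.65 for Lyz2 and 0.41 for Alb. The part of these markers in the lower level of Idh1 and the lncRNAs was not tested.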

How the data were processed

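The authors deposited, for each spot, the intensity that Feature Extraction 10.7.1.1 gives once background is subtracted and trends within the array removed, flags, and a p-value of the spot against background. They also deposited log2 values, 1 per probe, from quantile normalization in GeneSpring GX. Here the 61411 non-control spots were quantile normalized from their intensities, with a floor of 1 before taking log2. A probe's level is the mean of its spots other than outliers. To be tested, a probe needed a share of 0.5 of its kept spots well above background in every array of the control or of the LBW group, which 7548 lncRNA and 26060 mRNA probes met. These were fitted with limma 3.58.1 in R 4.3.3 with a two-sided test, and p-values were adjusted over all of them (Benjamini-Hochberg). The limma fit was tested on simulated data. Sequences and figures were handled in Python 3.11.15 with numpy 2.4.6, pandas 2.3.3 and matplotlib 3.10.9.

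The members and lists were chosen with earlier results of these data known. Named genes are the 3 transcripts, the neighbouring gene Cryga, and the 5 probes with a gene symbol most like Idh1. The markers and the other entries on chromosome 9 were added once their values had been seen. Other settings tried were scaling to the 75th percentile, normexp correction (offset 50), the authors' normalized table, outlier spots kept, the slide row or the replicate number as a block, each array left out, other filters on dim probes, each probe's own variance alone, a trended and robust variance, and for r Spearman's rho and values not centred. Chosen after seeing the data were normexp without the offset and the offset added to the processed intensities.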

Additional observations from a re-analysis of the deposited data

How the results depend on the processing

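The differences of the 3 transcripts kept their direction in all 42 values recomputed under 14 alternatives, and those of the 8 other named genes in all 112; for transcripts selected as lower or higher this is no sign of stability. Without any 1 array the difference ranged from -1.71 to -1.24 for Idh1, from -3.07 to -2.18 for TCONS_00134056 and from -2.27 to -1.55 for TCONS_00134054. With the slide row as a block it was -1.04 for Idh1 and -1.53 for TCONS_00134056, an estimate that rests on LBW 1. With normexp correction it was -1.21 for TCONS_00134056 and -0.24 for TCONS_00134054, while Idh1 was at -1.41. In alternatives chosen after seeing the data, normexp without the offset gave -1.49 for Idh1, -2.23 for TCONS_00134056 and -1.04 for TCONS_00134054, and the offset of 50 added to the processed intensities gave -1.40, -1.31 and -0.28, so for TCONS_00134056 most of the move came with the offset, which compresses dim spots. The centred r of TCONS_00134054 with Idh1 was -0.0125 without control 3 and 0.97 without control 2; the cause was not tested. The number of probes with an adjusted p under 0.05, 48 in the limma fit, was 99 with normexp correction, 77 without its offset, 151 with the offset added to the processed intensities, 7 with the slide row as a block, 3 without a filter on dim probes, 18 with any spot well above background on 1 array, 2 with each probe's own variance alone, 182 with a trended and robust variance, and between 3 and 29 without any 1 array (29 without control 1, 12 without control 2, 4 without control 3, 3 without LBW 1, 4 without LBW 2 and 4 without LBW 3); in limma with the replicate number as a block it was 0, with 4839 at an unadjusted p under 0.05. Deviations of arrays with the same replicate number correlated at 0.03, 0.06 and -0.01 across probes, so the numbers were not treated as pairs. Planned counts per gene list were not run, since the lists have almost no named probes. Signal over background limits TCONS_00134054 most, which did not count as well above background on any LBW array.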
